A study of Homo sapiens with 6 samples.

Results

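The genes described here are ATF4 and a set of its known targets, namely stress factors, enzymes of amino acid and one-carbon metabolism, amino acid transporters and tRNA synthetases. The 38 members were named by function, from what is known of the ATF4 response, by a rule that uses no measured value, although earlier results of these data were known. Of the 38, 36 had transcripts among the 34486 genes that could be summed, and 35 passed the filter on low counts and were tested together with 13047 genes in all. CHAC1 fell below that filter, and SESN2 and PCK2 were not analysed here.

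RNA came from MCF10A, a non-tumorigenic human breast epithelial line with a wild type genotype in both groups. The cells were kept in medium with horse serum, growth factor, insulin, hydrocortisone and cholera toxin. The study describes a change to fresh medium a few hours before MCF10A cells were collected for experiments. One group received siRNA against PDCD4 (siPDCD4, 3 libraries) and the other a control siRNA (siCT, 3 libraries), both at 10 nM for 48 h. PDCD4 is an RNA-binding tumour suppressor protein, reported earlier to bind the translation initiation helicase eIF4A in the cytoplasm. In MCF10A cells the study found PDCD4 mainly in the nucleus and did not find eIF4A among its protein partners. The study asked how loss of PDCD4 changes gene expression. The question put here is whether the mRNAs of the ATF4 response differed between the groups.

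When amino acids run short or unfolded protein accumulates, kinases phosphorylate the initiation factor eIF2, general translation slows and the ATF4 mRNA is translated more. ATF4 protein then pairs with C/EBP family proteins at response elements in the promoters of genes that make, import and load amino acids onto tRNA. The same branch switches on DDIT3 (CHOP) and PPP1R15A (GADD34), which act later in the response. The libraries measure mRNA, so ATF4 protein and eIF2 phosphorylation are not covered.

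Promoters of some members show the element by which ATF4 with its C/EBP partner is known to bind. The letters TGATGNAA, where N is any base, were searched on both strands from 250 bases before to 50 bases after each start site in RefSeq sequences of GRCh38.p14. They were found for 12 of 34 members with a promoter in the table (35.3%), against 4.46% of all 27305 genes. Counted by promoter, 12 of 54 of the members' promoters had a match (22.2%), against 3.62% of all 35116. NUPR1, PSPH, SHMT2 and SLC7A11 had no entry. Windows of 30 bases from 5 members, chosen to cover the different roles, are printed on the strand of the gene, with the matched letters in capitals.
ASNS: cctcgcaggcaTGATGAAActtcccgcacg
CEBPG: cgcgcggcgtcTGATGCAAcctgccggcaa
CHAC1: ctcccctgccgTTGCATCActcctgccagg
SLC1A5: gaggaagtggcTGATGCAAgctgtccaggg
MARS1: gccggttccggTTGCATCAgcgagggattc
The ASNS window lies at chr7:97872458-97872487 on the minus strand, with the match 68 bases before the start site. The CEBPG window is chr19:33374060-33374089 on the plus strand. That of CHAC1 is chr15:40953251-40953280 on the plus strand. The SLC1A5 window is chr19:46784893-46784922 on the minus strand, and that of MARS1 is chr12:57488053-57488082 on the plus strand. In CHAC1 and MARS1 the match is on the opposite strand, so it is read as the reverse complement. The other matches were in AARS1, CARS1, GARS1, NARS1, SLC1A4, SLC3A2 and SLC7A1, and a match is a description of the letters only.

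Silencing was seen in every siPDCD4 library. PDCD4 stood at 9.15, 7.43 and 8.62 CPM (counts scaled to equal library sizes, with differences in transcript length taken out) in siPDCD4 replicates 1, 2 and 3, against 90.4, 89.0 and 61.1 CPM in siCT replicates 1, 2 and 3. Its log2 fold change was -3.25 ± 0.17 (SE, n = 3 per group, adjusted p = 2.15e-05 in edgeR). Estimated counts per library were between 15547679 and 18619778 in siPDCD4 and between 13410441 and 21828931 in siCT, where siCT replicate 3 had the lowest total and stood apart on the first principal component. All 10 epithelial markers were at 1 CPM or more, with a summed level of 5901 to 6855 CPM in siPDCD4 and 6702 to 7045 CPM in siCT. Of the markers of other cells, 1 of 6 fibroblast, 1 of 5 endothelial and 2 of 6 leukocyte genes reached 1 CPM, and CD3E was at 0. The leukocyte sum was 11.6 to 14.7 CPM in siPDCD4 and 8.40 to 9.73 CPM in siCT, and its part in any result was not tested. Nothing in the labels says whether replicates came from separate cultures, so a p-value here reflects only how the libraries scatter, and that scatter may be technical. In bulk RNA, fewer cells of a kind and less RNA per cell cannot be told apart.

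None of the 35 tested members passed an FDR of 5% in edgeR, in either direction. Of all 13047 genes, 0.429% were called, 0.169% higher and 0.261% lower in siPDCD4, so a count of 0 among 35 genes is near the background. DESeq2 and limma-voom also called 0 members, where DESeq2 called 1.46% of all genes (0.644% higher and 0.82% lower) and limma-voom 0.33%. At an unadjusted p under 0.05, edgeR and DESeq2 each had 1 member, CBS, and limma-voom had 2, where the shares of all genes were 8.62%, 7.91% and 8.94%. The adjusted p of members in edgeR was between 0.488 and 0.996.

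Differences between the groups were small. The members' median log2 fold change was 0.05, against -0.01 over all genes tested, and 24 of 35 (68.6%) lay above 0, against 48.7% of all genes. The range ran from -0.50 for CTH to 0.74 for CBS. The median SE was 0.11, which is smaller than the 0.14 of all genes. For 28 of 35 members (80.0%) the 95% interval of the fold change lay within 1.5-fold in either direction, and for 31 (88.6%) within 2-fold, against 64.7% and 84.4% of all genes. For most members a change of 2-fold thus lay outside the interval, which a p above the threshold alone would not show.

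**Figure D1:**
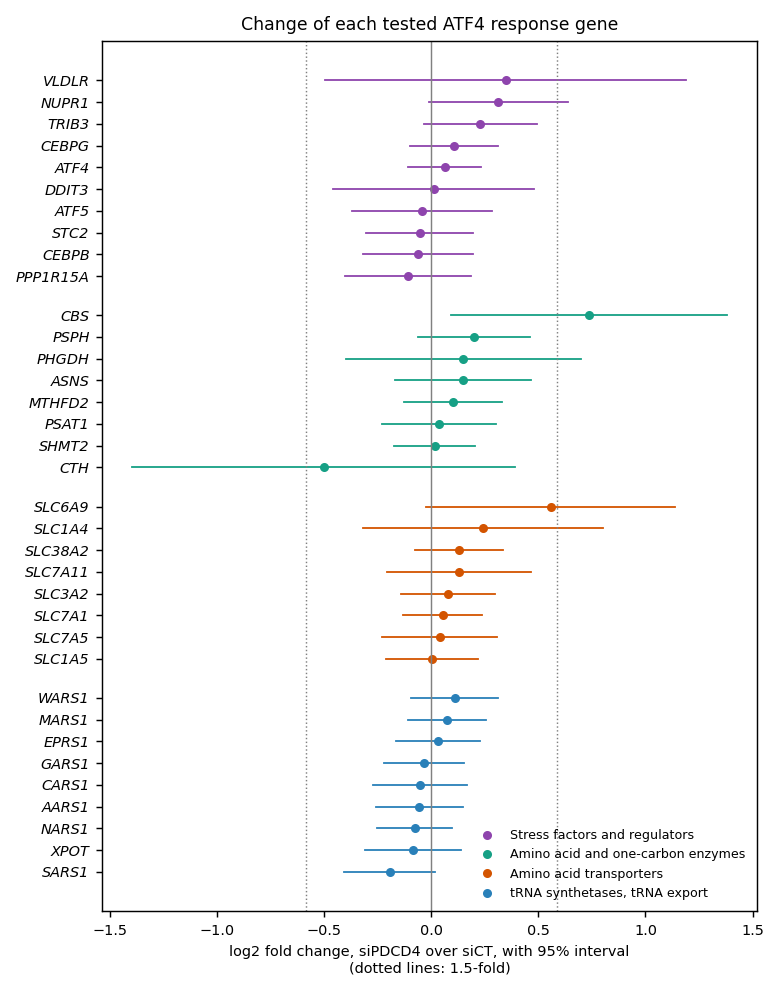
Log2 fold change of siPDCD4 over siCT (x axis) for the 35 tested members, coloured by role (y axis), with the 95% interval from the edgeR fit (n = 3 libraries per group) and dotted lines at 1.5-fold. Among these members only the interval of CBS, from 0.09 to 1.38, leaves out 0, and its adjusted p was 0.488 in edgeR.

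By role, the medians were 0.04 for 10 stress factors, 0.12 for 8 enzymes, 0.10 for 8 transporters and -0.05 for the 9 genes of tRNA charging and export. Without siCT replicate 3 the median of the enzymes was -0.02, and without siPDCD4 replicate 3 it was 0.21. The median of the tRNA genes was 0.02 without siPDCD4 replicate 3. The siCT 3 library was the lowest of the 6 for 14 of 35 members (40.0%), against 26.4% of all genes, and siPDCD4 replicate 2 was the highest for 13 (37.1%), against 16.2%. The groups did not overlap in 2 of 35 members (5.71%), CBS and NUPR1, both higher in siPDCD4, against 13.9% of all genes (6.81% higher and 7.14% lower).

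**Figure D2:**
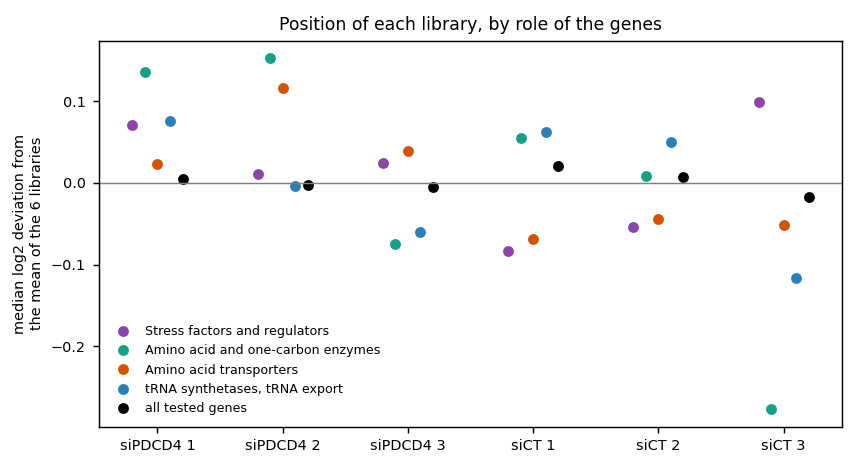
Median log2 deviation from the mean of the 6 libraries (y axis) in each library (x axis), for the members by role and for all tested genes (black). The enzymes were at -0.28 in siCT replicate 3, while the stress factors were at 0.10 there.

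ATF4 itself was an abundant mRNA. It was at 309, 310.4 and 295 CPM in siPDCD4 replicates 1, 2 and 3, against 305, 292 and 278 CPM in siCT replicates 1, 2 and 3. The groups overlapped, and the log2 fold change was 0.06 ± 0.08 (SE), with a 95% interval from -0.11 to 0.23. The transcript ATF4-206 held 94.0% of the gene's counts in siPDCD4 and 94.4% in siCT. With 217 TPM (a level per transcript length, scaled to a fixed total per library) on average over 6 libraries, ATF4 ranked 359 among all genes, and 3 among members.

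DDIT3 encodes CHOP, a factor that pairs with C/EBP proteins and promotes cell death in prolonged stress. It was at 4.35, 3.81 and 5.10 CPM in siPDCD4 replicates and 4.54, 4.18 and 4.46 CPM in siCT replicates. The groups overlapped, with a log2 fold change of 0.01 ± 0.21. DDIT3 overlaps MARS1 on the opposite strand, and the sources used here do not give the strand setting of Salmon, so the split of reads between these genes is uncertain.

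NUPR1 encodes a small stress-induced chromatin protein. It was at 14.2, 16.3 and 12.8 CPM in siPDCD4 replicates, against 12.2, 11.8 and 10.6 CPM in siCT replicates. All siPDCD4 libraries were above all siCT libraries, but the log2 fold change of 0.31 ± 0.15 did not pass (adjusted p = 0.598 in edgeR). TRIB3, a pseudokinase induced by ATF4 and CHOP that in turn restrains them, was at 42.1, 49.8 and 37.0 CPM in siPDCD4 replicates, against 35.4, 37.3 and 37.2 CPM in siCT replicates. Its siPDCD4 replicate 3 lay among the siCT libraries, and its log2 fold change was 0.23 ± 0.12. CEBPG, a C/EBP partner of ATF4, was at 56.5, 51.8 and 54.1 CPM in siPDCD4 replicates, against 52.8, 50.6 and 47.4 CPM in siCT replicates. These groups overlapped as well, with 0.11 ± 0.09 on the log2 scale.

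The other stress factors spanned small values in both directions. The log2 fold change was -0.04 for ATF5, a factor related to ATF4, and -0.06 for CEBPB, another C/EBP protein. It was -0.11 for PPP1R15A, which brings a phosphatase to eIF2, and -0.06 for STC2, a secreted glycoprotein. VLDLR, a lipoprotein receptor, had 0.35 with an SE of 0.38 at a level of 2.39 ± 0.277 CPM in siPDCD4 and 1.94 ± 0.975 CPM in siCT. None passed the test.

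CHAC1, which encodes an enzyme that degrades glutathione and is a sensitive target of the pathway, was too low to be tested in the main fit. It had 7, 15 and 14 estimated counts in siPDCD4 replicates, against 8, 6 and 4 in siCT replicates, or 0.392, 1.05 and 0.870 CPM against 0.388, 0.341 and 0.323 CPM. The lowest siPDCD4 library and the highest siCT library differed by less than 1 count's worth of level. Without the filter its log2 fold change was 1.09 ± 0.55 (adjusted p = 0.768 in edgeR). In fits without 1 library it passed the filter only where siPDCD4 replicates 2 and 3, its highest libraries, were both kept. It thus entered those fits through the group where it is high, so their values are preselected. There the log2 fold change ran from 1.04 without siCT replicate 3 to 1.42 without siPDCD4 replicate 1. The edgeR adjusted p was 0.529 and 0.603 in these 2 fits, so no difference was detectable at this depth.

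**Figure D3:**
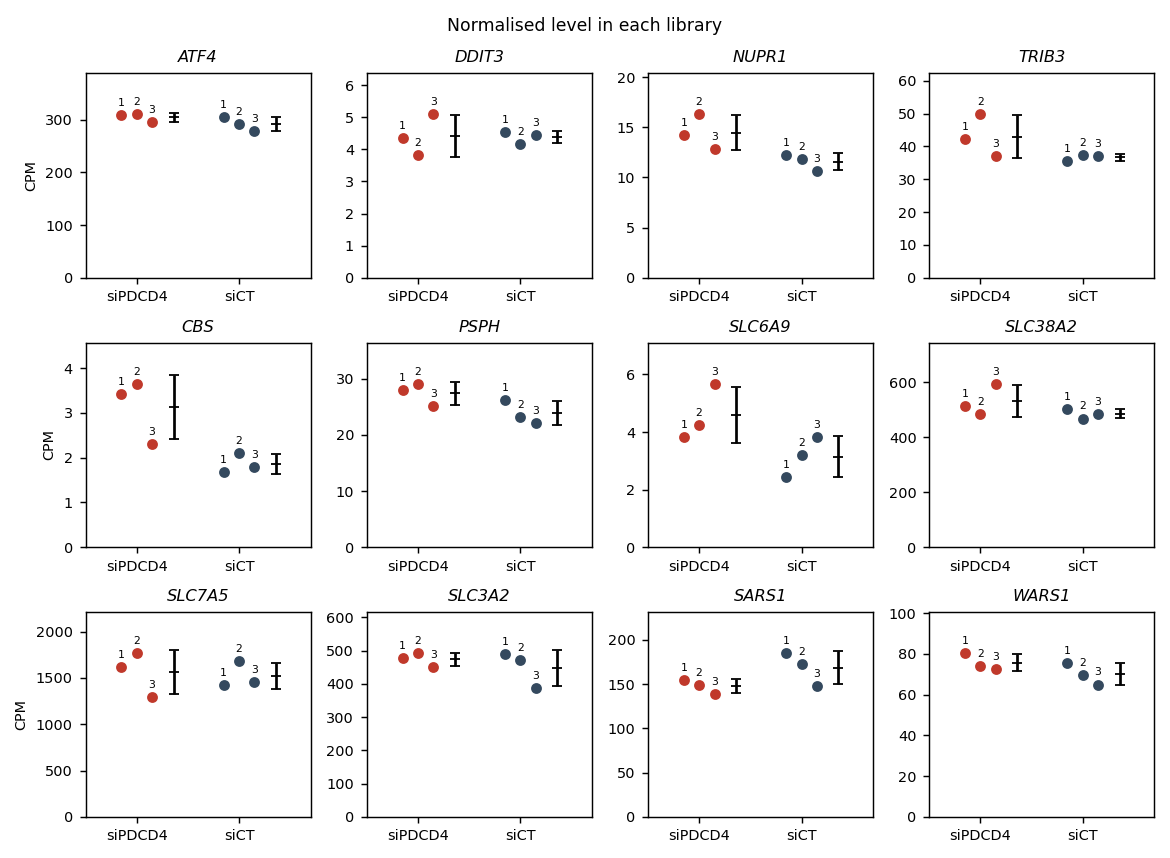
Normalised level (y axis, CPM, from 0) of 12 named members in each siPDCD4 and siCT library (points numbered by replicate), with the group mean and SD in black (n = 3). The groups are separate in CBS and NUPR1 and overlap or meet in the other genes shown.

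Among the enzymes, CBS had the largest change of any tested member. CBS makes cystathionine from homocysteine and serine, the first step of transsulfuration. It was at 3.41, 3.65 and 2.31 CPM in siPDCD4 replicates, against 1.68, 2.11 and 1.80 CPM in siCT replicates. All siPDCD4 libraries were above all siCT libraries, and the log2 fold change was 0.74 ± 0.29 (edgeR adjusted p = 0.488). The counts behind it were 50, 47 and 43 in siPDCD4 and 40, 38 and 22 in siCT. A near-identical copy, CBSL, is annotated on the same chromosome of the reference genome. It was not among the genes summed here, so the assignment of the CBS reads is uncertain. The leading transcript, CBS-204, had 19.8, 29.5 and 33.6 counts in siPDCD4 replicates, against 26.0, 28.2 and 16.8 in siCT replicates. Its log2 fold change was 0.32 ± 0.39. It held 60.1 ± 19.3% of the gene's counts in siPDCD4 and 72.0 ± 6.10% in siCT. CTH, the next enzyme of the route, was at 0.801, 0.971 and 1.24 CPM in siPDCD4 replicates, against 1.54, 0.848 and 2.11 CPM in siCT replicates. Its groups overlapped and its log2 fold change was -0.50 ± 0.40, opposite in sign to that of CBS. The CTH counts were 19, 15 and 17 in siPDCD4 and 39, 20 and 12.7 in siCT. The highest CTH level, in siCT replicate 3, thus rested on the fewest counts. CTH-202, its leading transcript, held 0 counts there and in siPDCD4 replicate 3.

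Serine synthesis runs through PHGDH, PSAT1 and PSPH in this order. PSPH, the last of them, was at 27.9, 29.1 and 25.1 CPM in siPDCD4 replicates, against 26.2, 23.1 and 22.1 CPM in siCT replicates, a log2 fold change of 0.20 ± 0.12. The siCT 1 library lay above the lowest siPDCD4 library. PHGDH had 0.15 ± 0.24, and its siCT libraries were widely spread, at 56.2, 43.1 and 26.9 CPM, against 50.5, 49.7 and 39.8 CPM in siPDCD4. Leaving out siCT replicate 3 moved PHGDH to -0.09. PSAT1 had 0.03 ± 0.12. ASNS, which makes asparagine, had 0.15 ± 0.14 with 29.5 ± 4.34 CPM in siPDCD4 and 26.5 ± 3.56 CPM in siCT (SD). The mitochondrial folate enzymes SHMT2 and MTHFD2 had 0.02 ± 0.09 and 0.10 ± 0.10.

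All 8 transporters had a log2 fold change above 0 in edgeR, from 0.0043 for SLC1A5 to 0.56 for SLC6A9, and none passed. That shared sign did not hold for SLC1A5 in limma-voom, with a replicate block or in 4 of 6 fits without 1 library, nor for SLC7A5 in 2, SLC3A2 in 1 and SLC7A11 in 1 of these 6 fits. SLC6A9, a glycine transporter, was at 3.83, 4.25 and 5.68 CPM in siPDCD4 replicates, against 2.43, 3.19 and 3.83 CPM in siCT replicates. The groups met at the lowest siPDCD4 and the highest siCT library, and the log2 fold change was 0.56 ± 0.26 (adjusted p = 0.603 in edgeR). SLC38A2 (SNAT2), which takes up small neutral amino acids, was at 514, 483 and 595 CPM in siPDCD4 replicates, against 502, 468 and 486 CPM in siCT replicates. Its log2 fold change was 0.13 ± 0.09, and the groups overlapped. SLC1A4 (ASCT1) was at 3.76, 5.11 and 4.38 CPM in siPDCD4 replicates, against 3.40, 3.05 and 4.92 CPM in siCT replicates, with 0.24 ± 0.25. These groups overlapped as well.

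SLC7A5 (LAT1) and SLC3A2 (4F2hc) form the exchanger that brings in large neutral amino acids. SLC7A5 was at 1622, 1768 and 1299 CPM in siPDCD4 replicates, against 1423, 1688 and 1455 CPM in siCT replicates. SLC3A2 was at 478, 492 and 452 CPM in siPDCD4 replicates, against 489, 471 and 387 CPM in siCT replicates. Both overlapped between the groups, with log2 fold changes of 0.04 ± 0.12 and 0.08 ± 0.10. Per length the 2 subunits were at like levels, and the ratio of SLC7A5 to SLC3A2 in TPM was 1.09, 1.15 and 0.922 in siPDCD4 replicates, against 0.934, 1.15 and 1.21 in siCT replicates. SLC7A11, the cystine and glutamate exchanger that also pairs with SLC3A2, had 0.13 ± 0.15. SLC7A1, the transporter of cationic amino acids, had 0.05 ± 0.08.

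For all 9 genes of tRNA charging and export the 95% interval lay within 1.5-fold, and their median SE was 0.09. SARS1, the seryl-tRNA synthetase, was at 155, 149 and 139 CPM in siPDCD4 replicates, against 185, 172 and 148 CPM in siCT replicates. The siPDCD4 libraries overlapped only the lowest siCT library, and the log2 fold change was -0.19 ± 0.10 (adjusted p = 0.646 in edgeR). Without siCT replicate 3 the adjusted p of SARS1 was 0.233, the lowest of any member in any alternative. WARS1, for tryptophan, was at 80.3, 73.8 and 72.6 CPM in siPDCD4 replicates, against 75.5, 69.7 and 64.9 CPM in siCT replicates, with 0.11 ± 0.09. NARS1, for asparagine, was at 275, 258 and 261 CPM in siPDCD4 replicates, against 296, 276 and 266 CPM in siCT replicates, with -0.08 ± 0.08. The groups overlapped in all 3 genes. The other synthetases AARS1, GARS1, MARS1, EPRS1 and CARS1 lay between -0.06 and 0.07, and XPOT, which exports tRNA from the nucleus, was at -0.09.

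**Figure D4:**
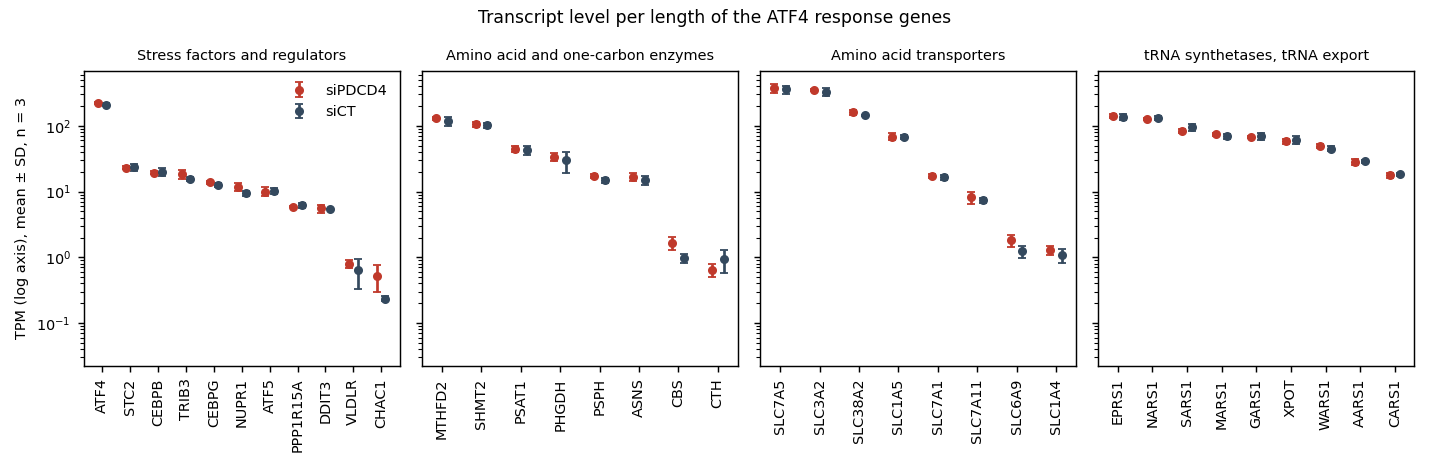
TPM (y axis, log scale) of the 36 members with transcripts (x axis, by role in order of level), as mean and SD of the 3 siPDCD4 and the 3 siCT libraries. Averaged over the 6 libraries SLC7A5 was highest at 366 TPM and CHAC1 lowest at 0.380 TPM, and the points of both groups lie close for most members above 2 TPM.

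The levels themselves spanned a wide range. Averaged over the 6 libraries, SLC7A5 was at 366 TPM, SLC3A2 at 341 TPM and ATF4 at 217 TPM. The ranges of SLC7A5 and SLC3A2 overlapped, while that of ATF4 lay apart from its neighbours in the order. In total 8 members exceeded 100 TPM and 6 were under 2 TPM. The 6 low ones were SLC6A9, CBS, SLC1A4, CTH, VLDLR and CHAC1. The members took 0.570 ± 0.034% of all counts in siPDCD4 and 0.550 ± 0.042% in siCT (SD, n = 3 per group), which is a difference within the spread. The median coefficient of variation of members between libraries was 8.21% in siPDCD4 and 9.48% in siCT, against 9.92% and 11.6% over all genes.

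Single transcripts were tested as well. Of 502 listed transcripts of members, 172 were tested, and 0 passed in edgeR, in which 0% of all 47375 transcripts passed. That fit called no transcript of any gene, the silenced PDCD4 included, so its 0 tells nothing about the members. At an unadjusted p under 0.05 there were 6 member transcripts (3.49%), against 3.11% of all. DESeq2 called 0 of the 172, where it called 1.13% of all transcripts. The transcripts with the smallest p were SLC3A2-233, ASNS-209, WARS1-203 and PHGDH-208. SLC3A2-233 took 9.24 ± 1.01% of the counts of SLC3A2 in siPDCD4 and 6.26 ± 1.02% in siCT, and had the lowest DESeq2 adjusted p of members, 0.0730. ASNS-209 had 11.1, 15.6 and 22.0 counts in siPDCD4, against 33.8, 67.3 and 47.4 counts in siCT, with a log2 fold change of -1.56 ± 0.50. The transcript with the most counts per gene shifted its share by under 5 percentage points in 26 of 35 members. The largest shift was 19.6 points, in PPP1R15A-201, with SDs of 14.3 in siPDCD4 and 24.5 in siCT.

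Other genes of the pathway were set beside the members. Among 16 genes of eIF2 kinases and the core of the response 6 lay above 0, with a median log2 fold change of -0.07. Of 22 tested further ATF4 targets 12 lay above 0 (median 0.02). For the 16 other cytosolic synthetases the median was -0.05, for the 17 mitochondrial synthetases -0.09 and for the 17 tested other transporters 0.03. The groups did not overlap in 7 of the 22 further ATF4 targets (31.8%), of which 3 were higher and 4 lower in siPDCD4, against 13.9% of all genes. The same held for 3 of 16 core genes (18.8%), 4 of 17 other transporters (23.5%), 1 of 17 mitochondrial synthetases (5.88%) and 0 of 16 other cytosolic synthetases. None of the genes in these lists passed in edgeR, which called 0.429% of all genes. DESeq2 called 2 of the 22 further ATF4 targets, GDF15 and TNFRSF10B, where it called 1.46% of all genes.

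GDF15, a secreted stress cytokine, was at 6.10, 5.72 and 7.24 CPM in siPDCD4 replicates, against 2.90, 3.82 and 2.49 CPM in siCT replicates. All siPDCD4 libraries were above all siCT libraries, with a log2 fold change of 1.04 ± 0.23 (adjusted p = 0.122 in edgeR and 0.0257 in DESeq2). TNFRSF10B, a death receptor that CHOP is known to induce, was at 138, 144 and 138 CPM in siPDCD4 replicates, against 178, 176 and 170.2 CPM in siCT replicates. Here all siPDCD4 libraries were below all siCT libraries, with -0.32 ± 0.07 (adjusted p = 0.141 in edgeR and 0.00866 in DESeq2). The 2 genes thus differed in direction, and both passed only in DESeq2. PYCR1, which makes proline, had 0.46 ± 0.13 (adjusted p = 0.225 in edgeR). VARS1, the valyl-tRNA synthetase, had 0.64 with an adjusted p of 0.396, and SLC7A2, a transporter of cationic amino acids, had -0.33 with 0.266, both in edgeR.

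**Figure D5:**
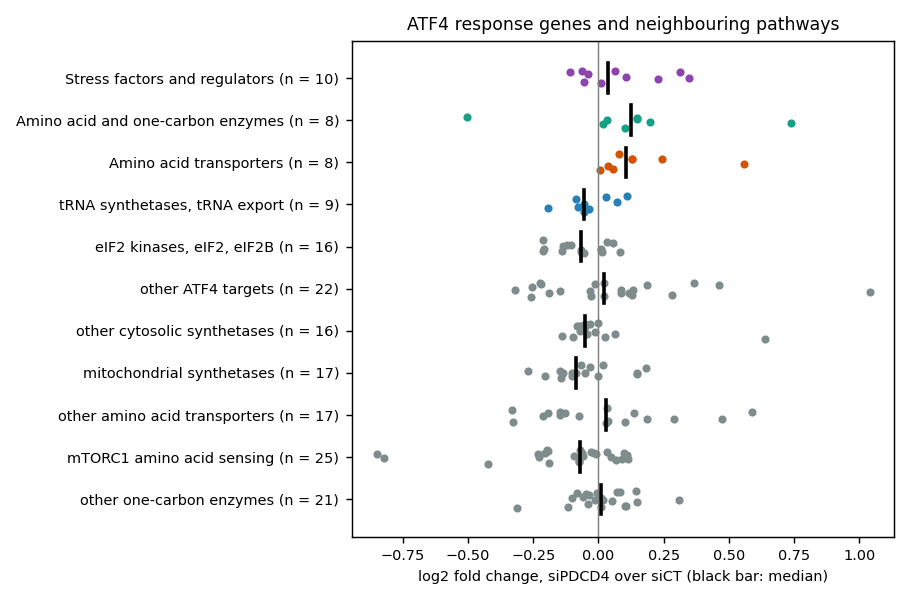
Log2 fold change of siPDCD4 over siCT (x axis) for each tested gene of the members' roles (coloured) and of the other lists (grey, y axis), with the median of each list as a black bar. The medians lie between -0.09 and 0.12, and GDF15, among the other ATF4 targets, is the highest point at 1.04.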

How the data were processed

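Total RNA libraries (TruSeq Stranded, paired reads of 75 bases) were quantified by the authors with Salmon against GRCh38 transcripts (version not given in the sources used here). The deposited tables hold estimated counts and TPM per transcript, both made by the authors in the Salmon run. Here 181244 of 194142 transcripts were matched by identifier to GENCODE release 44 and summed to 34486 genes, and the unmatched ones held 5.47% to 6.21% of counts. The rounded gene counts went into the robust quasi-likelihood model of edgeR 4.0.16 (R 4.3.3), with filterByExpr, TMM factors, a transcript length offset and no term other than group. Benjamini-Hochberg adjustment covered all 13047 tested genes, at an FDR of 5%. For transcripts the model had no offset. Errors (±) are SE for log2 fold changes and SD for levels and shares. The 95% interval uses the t quantile of the fitted degrees of freedom. TPM was summed over transcripts and used only between genes. Estimated counts shared among copies or overlapping genes are uncertain. The tests were checked on simulated data.

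Members and lists were chosen with earlier results of these data known, so no set test was made. Values per library are given for members past the FDR or with separate groups, and for the 3 with the smallest p of each role. They are also given for ATF4, DDIT3 and the 3 members with the highest TPM. Of the other lists, GDF15, TNFRSF10B and DEPDC5 are given per library. PYCR1, VARS1 and SLC7A2 are given by log2 fold change and adjusted p only. CHAC1, PHGDH and VLDLR, and the leading transcripts of CBS and CTH, were described further after their values were seen. Alternatives were DESeq2 1.42.0, limma-voom (limma 3.58.1), other normalisation factors, filters and offsets, a replicate block and leaving out each library. Promoters were RefSeq sequences. Values of some listed genes are not reported here. Figures were drawn with matplotlib 3.10.9.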

Additional observations from a re-analysis of the deposited data

How the results depend on the processing

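No member passed an FDR of 5% in any of the 16 alternatives run. The median log2 fold change of the members tested (35 or 36) was 0.02 to 0.11 when 1 library was left out. The numbers of replicates are shared between the groups, and the labels do not say whether they pair the libraries. Over 13047 genes, the deviations from the group mean correlated by 0.072, 0.117 and 0.183 between same-numbered libraries. For siPDCD4 replicate 1 with siCT replicate 2 the value was 0.102, and for the remaining pairs it lay between -0.193 and -0.030. With a replicate block edgeR called 102 genes against 56 without it and 0 members, and DDIT3 and SLC1A5 turned to -0.0013 and -0.00051. DESeq2 called 191 genes, and the fit with no length offset 128. Without 1 library edgeR called 17 to 40 genes. Without the length offset the log2 fold change was -0.03 for MARS1, 0.0055 for STC2, -0.012 for SHMT2, -0.0011 for DDIT3 and 0.034 for DEPDC5, all of the opposite sign. In limma-voom SLC1A5 was at -0.00010. Leaving out 1 library at a time gave ranges that cross 0 for AARS1 (-0.11 to 0.033), ATF5 (-0.11 to 0.087), CARS1 (-0.11 to 0.017), CEBPB (-0.16 to 0.016), DDIT3 (-0.095 to 0.10), EPRS1 (-0.034 to 0.084), GARS1 (-0.099 to 0.0043), MTHFD2 (-0.0058 to 0.16), PHGDH (-0.088 to 0.41), PSAT1 (-0.078 to 0.13), SHMT2 (-0.030 to 0.080), SLC1A5 (-0.047 to 0.11), SLC3A2 (-0.017 to 0.14), SLC7A11 (-0.063 to 0.23), SLC7A5 (-0.060 to 0.17) and STC2 (-0.12 to 0.059). The cause was not tested. With 3 libraries per group and at most 50 counts per library in CBS, small changes of low genes were not detectable.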

Other observations

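Genes around the amino acid response were counted in the same way. Of 25 genes of amino acid sensing by mTORC1, 7 lay above 0, with a median log2 fold change of -0.07. Among them 0 passed in edgeR or DESeq2, which called 0.429% and 1.46% of all genes. At an unadjusted p under 0.05 each had 2, where the shares of all genes were 8.62% and 7.91%. The groups did not overlap in 4 of the 25, all lower in siPDCD4, against 13.9% of all genes (7.14% lower). DEPDC5, a subunit of the GATOR1 complex that restrains mTORC1, was at 20.8, 21.7 and 22.6 CPM in siPDCD4 replicates, against 32.8, 29.2 and 25.2 CPM in siCT replicates. All siPDCD4 libraries were below all siCT libraries, with a log2 fold change of -0.42 ± 0.12 (adjusted p = 0.264 in edgeR), but without the length offset it was 0.034. Of 21 other one-carbon enzymes, 11 lay above 0, with a median of 0.01. Against the same shares of all genes, 0 passed in edgeR or DESeq2, with 0 at an unadjusted p under 0.05 in each. The groups did not overlap in 1 of the 21, which was higher in siPDCD4.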
